A study of Mus musculus with 12 samples.

Results

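The genes of endoplasmic reticulum (ER)-associated degradation were followed in RNA from the pancreatic islets of mice with and without intact Wfs1, which encodes a membrane protein of the ER. A list of 31 gene symbols was matched to the names in the table of expression values, and 30 of the 31 had an entry among the 24078 entries of the table. The remaining gene, Fam8a1, was not analysed here. The 12 samples came from 12 male mice, 4 of each genotype, all F2 hybrids of 129S6/SvEvTac and C57BL/6 at 5 to 6 months of age. WT mice carried the intact gene, Wfs1HZ mice were heterozygous and Wfs1KO mice homozygous for the Wfs1tm1Koks allele. In that allele most of exon 8 is replaced by a LacZ cassette and a truncated fusion protein is still made, so Wfs1KO is not a model without any product of the gene. Islets of every genotype were freed with collagenase, picked by hand and kept overnight in culture before the RNA was taken. Values are RPKM, reads scaled to transcript length and to the number of mapped reads, which allows levels of different genes to be set side by side.

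ER-associated degradation is the route by which proteins that fail to fold in the ER are recognised, pulled back into the cytosol and destroyed by the proteasome. Lectins and mannose-trimming enzymes in the lumen mark the glycoproteins, a membrane complex built around the ubiquitin ligase HRD1 (Syvn1) and its partner Sel1l moves them across the membrane with the derlins, and the ATPase p97 (Vcp) draws them out. In secretory cells such as the beta cell, which makes proinsulin in large amounts, the route works beside the chaperones of the ER, and several of its genes are classical targets of the unfolded protein response through the transcription factors ATF6 and XBP1.

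The response elements read by these factors give the members a feature that the choice of genes did not use. RefSeq windows of 250 bases before to 50 bases after the transcription start (GRCm38.p6) were searched on both strands. They were found for 24 of the 31 listed genes, with 30 windows among them. Members are named below as genes, whereas the shares of all windows count windows, so the units differ. The ER stress response element (ERSE, that is CCAAT, then 9 bases of any kind, then CCACG) was present in Derl3 and Syvn1 and in 0.119% of all 32851 windows of the table. ERSE-II (ATTGG, then 1 base, then CCACG) was present in Herpud1 and in 0.0365% of all windows. The core of the UPR element, TGACGTG, was present in Ube2j1 and Vcp, against 2.01% of all windows. No member held more than 1 of these motifs. The 3 windows with ERSE or ERSE-II are shown on the strand of the gene, with the matched bases in capitals. Edem2 and Sel1l held none of the motifs, and for Derl1 and Ube2g2 no window was found. Whether the motifs bear on the differences between genotypes below was not tested. In Derl3 (chr10:75893148-75893447, plus strand) the match lies 156 to 138 bases before the start and reads along the opposite strand, in Syvn1 (chr19:6046326-6046625, plus strand) 44 to 26 bases before it, and in Herpud1 (chr8:94386179-94386478, plus strand) 52 to 42 bases before it. A match of letters is a description of the window and not a measured binding site.
Derl3: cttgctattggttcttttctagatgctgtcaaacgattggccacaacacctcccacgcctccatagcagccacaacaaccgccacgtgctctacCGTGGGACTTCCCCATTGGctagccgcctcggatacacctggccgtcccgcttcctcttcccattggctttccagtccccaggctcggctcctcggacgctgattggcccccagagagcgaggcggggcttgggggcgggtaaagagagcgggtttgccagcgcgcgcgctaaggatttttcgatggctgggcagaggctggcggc
Syvn1: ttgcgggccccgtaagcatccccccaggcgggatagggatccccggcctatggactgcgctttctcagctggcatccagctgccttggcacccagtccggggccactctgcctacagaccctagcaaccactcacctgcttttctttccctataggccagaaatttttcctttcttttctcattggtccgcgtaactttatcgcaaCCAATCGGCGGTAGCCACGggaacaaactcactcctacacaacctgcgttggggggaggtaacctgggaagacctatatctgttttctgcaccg
Herpud1: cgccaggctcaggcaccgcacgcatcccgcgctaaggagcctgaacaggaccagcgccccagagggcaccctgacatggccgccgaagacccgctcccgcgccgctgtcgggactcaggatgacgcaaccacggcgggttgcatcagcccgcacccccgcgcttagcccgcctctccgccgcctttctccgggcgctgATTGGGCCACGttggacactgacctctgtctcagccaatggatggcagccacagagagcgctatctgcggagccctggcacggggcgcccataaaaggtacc

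Wfs1 itself, the targeted gene, checks the labels. Its RPKM was 33.94, 27.37, 24.85 and 28.43 in the WT animals, 15.03, 4.69, 16.43 and 8.16 in Wfs1HZ and 5.08, 6.61, 3.46 and 2.45 in Wfs1KO. No Wfs1HZ or Wfs1KO animal overlapped with a WT animal, but Wfs1HZ replicate 2, at 4.69, lay within the Wfs1KO range. Wfs1KO and Wfs1HZ differed by -1.24 ± 0.46 (SE, adjusted p = 1 by limma, exact permutation p = 0.086), and Wfs1KO and WT by -2.76 ± 0.29 (SE, adjusted p = 0.04 by limma) on the log2 scale. Here and in what follows a log2 difference is that of the mean log2(RPKM + 0.1) of the genotypes, SE is its standard error, and exact permutation tests are two-sided.

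The depth behind the values, estimated from short RNA genes, was 2908000 to 8925000 reads in WT, 2191000 to 7341000 in Wfs1HZ and 3286000 to 9562000 in Wfs1KO. The paper reports many more reads per sample, and the difference from these estimates was not examined. The fewest reads of any member in any animal were about 19 (Derl3 in Wfs1HZ replicate 2), and Sel1l reached about 5760. All 12 islet endocrine markers had an entry and their summed RPKM was 166200 to 260600 in WT, 149600 to 228000 in Wfs1HZ and 96830 to 263000 in Wfs1KO, although Mafa was listed at 0 in every WT animal. Much of this sum was glucagon RNA, with 217165.49 of 263038.01 RPKM from Gcg in Wfs1KO replicate 4. Of the beta cell markers, Slc30a8 was 37.19 to 76.33 RPKM in WT and 13.33, 17.31, 16.44 and 53.89 in Wfs1KO, and Slc2a2 was 3.37 to 11.69 in WT and 2.5 to 4.34 in Wfs1KO. Others did not share this direction or overlapped widely. Nkx6-1 was 4.51 to 15.12 in WT and 5.69 to 24.81 in Wfs1KO, and Pdx1 5.29 to 11.89 and 4.97 to 21.31. Ins1 was 13075.45 to 91586.75 in WT and 9815.67 to 48927.73 in Wfs1KO. In the same order Ins2 was 15292.21 to 76686.68 and 9199.03 to 33524.67, and Iapp 3575.1 to 13725.4 and 3228.87 to 8828.75. RNA of other pancreatic cells was present in all groups. The summed RPKM of 19 acinar markers ran from 57680 to 129000 in WT, from 9855 to 325400 in Wfs1HZ and from 9766 to 298000 in Wfs1KO. For 7 ductal markers the sums were 658.4 to 1385, 436.6 to 1389 and 195.5 to 1926 in the same order, and for 7 immune markers 33.09 to 146.6, 36.98 to 68.28 and 17.67 to 69.31. Most of the highest immune sum was Cd68, with 142.45 of 146.61 RPKM in WT replicate 4. Ptprc (7.61), Cd79a (9.21), Itgam (3.49) and Csf1r (2.11) were instead highest in Wfs1HZ replicate 2, and Cd3e and Lyz2 in Wfs1HZ replicate 1. The 6 endothelial markers summed to 19.83 to 52.46 in WT, 19.7 to 98.21 in Wfs1HZ and 56.38 to 65.83 in Wfs1KO, and 3 plasma cell markers to at most 13.88 in any animal. Those of 6 stromal markers were 18.56 to 56.92, 12.31 to 356.6 and 56.63 to 132.4. Their part in the results was not tested except for the acinar level, which is given below for Derl3 and for counts of the members only. In such bulk samples fewer cells of a type and less RNA per cell cannot be told apart. A pair of Wfs1HZ libraries stood apart. Replicate 2 had the lowest estimated depth, the lowest acinar sum of its group (9855) and the highest stromal sum (356.6). It also had the most entries above 0 of any animal (20954), which was not reconciled with its estimated depth. Replicate 4 had the highest acinar sum (325400). The median-of-ratios size factors of replicates 2 and 4 were 1.37 and 0.632, against 0.801 to 1.18 in the other animals. Counts and medians of the members and the genes with full values are therefore also given without both where Wfs1HZ is compared with Wfs1KO.

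In WT islets the members were spread over a wide range of levels. The highest was Ubxn4, an ER membrane protein that binds p97, at 88.4 ± 6.82 RPKM (SD, n = 4), followed by Herpud1 at 73.9 ± 15.7 and the ubiquitin-conjugating enzyme Ube2j1 at 52.8 ± 3.67. The lowest were Derl3 at 7.68 ± 2.52 and Ube2j2 at 2.21 ± 0.46. Most neighbours in this order differed by less than their SD, as Ufd1l (32.1 ± 2.31) and Ube2g2 (31.1 ± 3.8) did.

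Between Wfs1KO and WT islets 26 of the 30 members had a higher mean log2 level in Wfs1KO and 4 a lower one. The largest differences were those of the derlins Derl3 and Derl1, of the lumen factor Edem2 and of Sel1l, and Derl3 was at 3.3 times its WT level. The median log2 difference of the members was 0.16, and that of all 21701 entries tested was 0.07, of which 57.4% were above 0. No member passed an FDR of 0.05 by limma, which 0.0138% of all entries tested passed, and none an FDR of 0.2, which 0.0461% passed. The lowest adjusted p was 0.27, that of Derl3. An unadjusted p under 0.05 was reached by 4 members, Derl3, Edem2, Sel1l and Ube2g2, all higher in Wfs1KO. This is 13.3% of the members, beside 3.91% of all entries tested in that direction and 1.74% in the other, in which 0 members did. The 4 Wfs1KO animals lay above the 4 WT animals without overlap in Derl3 and Ube2g2, 6.67% of the members, beside 1.75% of all entries, and 0 members lay below without overlap, beside 0.991%. The summed endothelial markers of these genotypes did not overlap either, with 56.38 to 65.83 RPKM in Wfs1KO and 19.83 to 52.46 in WT, and the stromal sums nearly so, with 56.63 to 132.4 in Wfs1KO and 18.56 to 56.92 in WT, whereas the acinar sums overlapped. The part of endothelial and stromal RNA in these differences was not tested. The members were measured in the same animals and are not independent of each other, so these shares are a description.

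**Figure D1:**
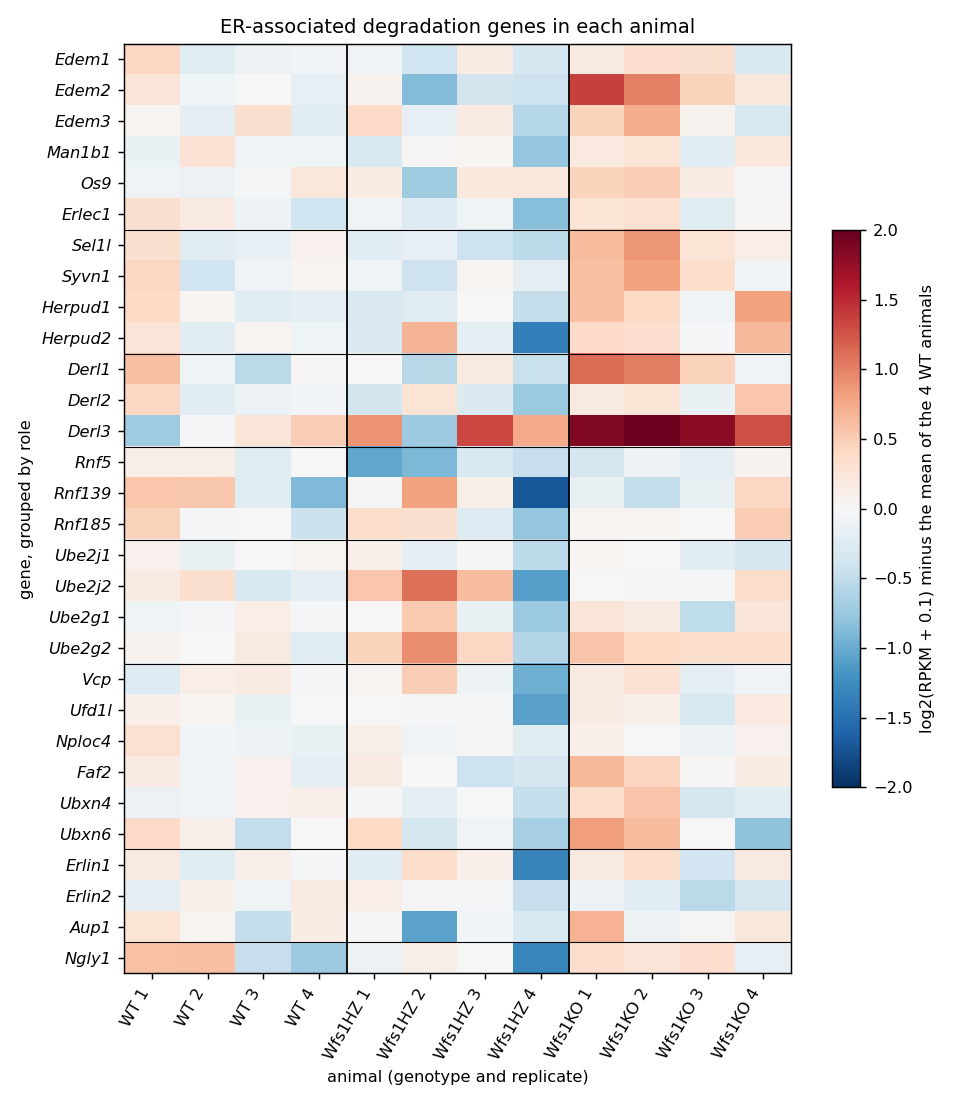
Level of the 30 members in each of the 12 animals, as log2(RPKM + 0.1) minus the mean of the 4 WT animals, with genes grouped by role from lumen factors (top) to Ngly1 (bottom). Derl3 is above the WT mean in every Wfs1KO animal, and Wfs1HZ replicate 4 is the lowest of the 12 animals in 19 members.

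Against Wfs1HZ islets 28 of the 30 members had a higher mean log2 level in Wfs1KO and 2 a lower one, with a median log2 difference of 0.34 beside 0.04 over all entries tested (53.5% above 0). These values and those against WT share the Wfs1KO animals and are not separate evidence. An FDR of 0.05 was passed by 0 members and by 0.0% of all entries, and every adjusted p of a member was 1 by limma. An unadjusted p under 0.05 was reached by 7 members, Edem2, Sel1l, Derl3, Herpud1, Derl1, Syvn1 and Rnf5. All were higher in Wfs1KO, 23.3% of the members beside 1.7% of all entries. Edem2 and Sel1l did not overlap between these genotypes, 6.67% of the members beside 0.926%. Without Wfs1HZ replicates 2 and 4 the split was 22 higher and 8 lower, and the median fell to 0.13 beside 0.05 over all entries. In that fit 4 members had an unadjusted p under 0.05 and were higher, as were 2.6% of all entries. They were Edem2, Sel1l, Herpud2 and Derl2, whereas Derl3, Herpud1, Derl1, Syvn1 and Rnf5 no longer reached it. Leaving out Wfs1HZ replicate 4 alone gave a median of 0.20 for the members and -0.20 for all entries, and without Wfs1KO replicate 2 the count of members at that p was 4 as well, beside 1.1% of all entries.

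Between Wfs1HZ and WT islets 27 members had the lower value in Wfs1HZ and 3 the higher one (Derl3, Ube2g2 and Ube2j2), with a median log2 difference of -0.17. Over all entries the median was 0.04 and 53.2% were above 0. The split depended on the libraries included. Without Wfs1HZ replicate 4 it was 18 lower and 12 higher, with a median of -0.02 for the members and 0.25 for all entries. Without replicates 2 and 4 it was 17 and 13, with medians of -0.02 and 0.01. With all libraries after median-of-ratios scaling 5 members were higher, with medians of -0.13 and 0.07. Rnf5 was the only member at an unadjusted p under 0.05 and the only one without overlap, 3.33% of the members beside 1.27% and 1.08% of all entries that were lower. By limma 0 members and 0.0% of all entries passed an FDR of 0.05, and the adjusted p of each member was 1. The count of members lower at an unadjusted p under 0.05 was 2 without Wfs1HZ replicate 1 (beside 1.58% of all entries), and that of members higher was 0 (beside 1.09% of all entries), or 1 without replicate 2 or replicate 4 (beside 0.949% and 4.06%).

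**Figure D2:**
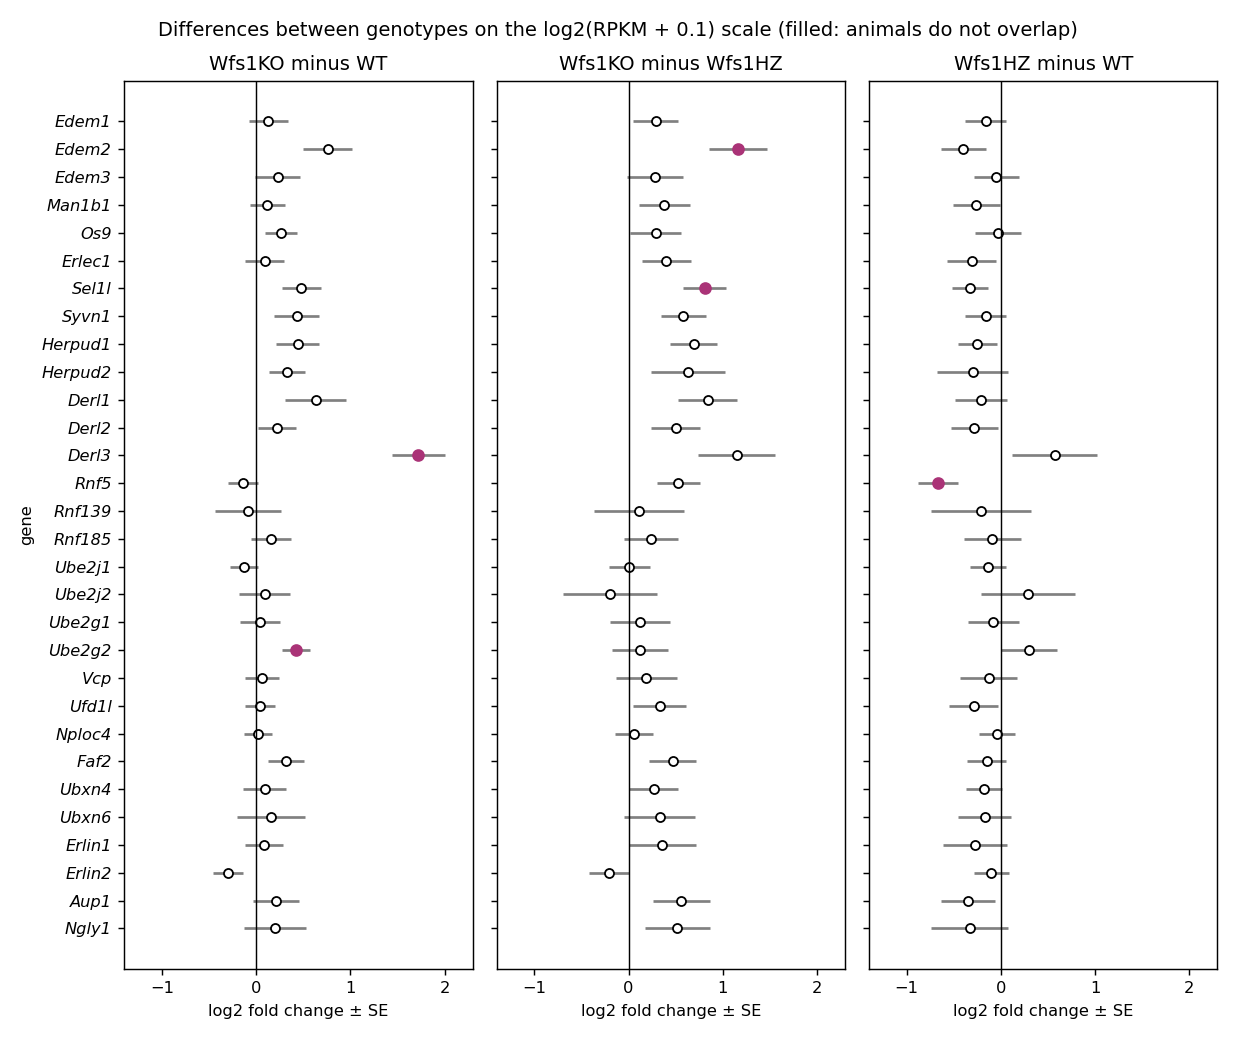
Log2 difference of each member between the genotypes with its standard error (bars), on the log2(RPKM + 0.1) scale, in 3 panels for the 3 pairs of genotypes with 4 animals each. Filled points mark members whose animals did not overlap between the genotypes, which are Derl3 and Ube2g2 (Wfs1KO minus WT), Edem2 and Sel1l (Wfs1KO minus Wfs1HZ) and Rnf5 (Wfs1HZ minus WT).

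Recognition in the lumen was represented by 6 members. Edem1, Edem2 and Edem3 belong to the family of mannosidase-like proteins that prepare misfolded glycoproteins for degradation, Man1b1 is the ER mannosidase that trims their glycans, and the lectins Os9 and Erlec1 hand them to Sel1l. All 6 had a higher mean in Wfs1KO than in either other genotype, with medians of 0.18 against WT and 0.33 against Wfs1HZ, the latter 0.12 without Wfs1HZ replicates 2 and 4. Edem2 (chromosome 2, 155701677 to 155729475, GRCm38) had the largest difference of the group. Its RPKM was 14.29, 11.25, 11.91 and 10.58 in WT, 12.52, 6.52, 9.2 and 8.9 in Wfs1HZ and 30.99, 24.13, 16.26 and 13.97 in Wfs1KO. Every Wfs1KO animal was above every Wfs1HZ animal, and only Wfs1KO replicate 4 fell within the WT range, just below WT replicate 1. The log2 difference was 0.76 against WT (standard error 0.26, adjusted p = 0.835 by limma, exact permutation p = 0.057). Against Wfs1HZ it was 1.16 ± 0.31 (SE, adjusted p = 1, exact permutation p = 0.029, which is the minimum for groups of 4), and 0.91 without Wfs1HZ replicates 2 and 4. The other 5 were nearer to the WT level. Os9 had 22.1 ± 2.44 RPKM in WT and 26.7 ± 4.54 in Wfs1KO, and Edem3 24.1 ± 4.32 and 29.1 ± 8.97. For Edem1, Man1b1 and Erlec1 the log2 differences from WT were between 0.09 and 0.13, each smaller than its standard error.

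The HRD1 complex was represented by Sel1l, Syvn1 and the ubiquitin-like proteins Herpud1 and Herpud2, of which Herpud1 is known to support the complex and to be induced by ER stress. All 4 had a higher mean in Wfs1KO, with a median of 0.43 against WT and 0.66 against Wfs1HZ, or 0.58 without Wfs1HZ replicates 2 and 4. Sel1l (chromosome 12, 91806043 to 91849157), the adaptor that stabilises the ligase, had 56.5, 38.4, 40.05 and 47.73 RPKM in WT, 39.17, 40.24, 34.01 and 31.33 in Wfs1HZ and 70.41, 82.42, 54.74 and 49.64 in Wfs1KO. The lowest Wfs1KO animal lay above all Wfs1HZ animals, but 2 of the Wfs1KO values were below WT replicate 1. The difference from Wfs1HZ was 0.81 ± 0.23 (SE, adjusted p = 1 by limma, exact permutation p = 0.029), and 0.79 without Wfs1HZ replicates 2 and 4. That from WT was 0.48 ± 0.21 (SE, adjusted p = 0.879, exact permutation p = 0.086).

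The ligase and the Herpud proteins followed with wider overlap. Herpud1 (chromosome 8, 94386438 to 94395377) had 95.7, 75.17, 61.65 and 63.24 RPKM in WT, 59.38, 61.75, 72.79 and 52.1 in Wfs1HZ, and 111.05, 96.05, 69.52 and 127.09 in Wfs1KO. Replicate 3 was the one Wfs1KO animal within the Wfs1HZ range. The log2 difference of Herpud1 was 0.44 ± 0.23 (SE) from WT and 0.69 ± 0.25 from Wfs1HZ, the latter 0.58 ± 0.28 without Wfs1HZ replicates 2 and 4. Syvn1 (chromosome 19, 6046576 to 6053712) had 23.99, 13.66, 17.0 and 18.63 RPKM in WT, 17.05, 13.51, 18.65 and 15.67 in Wfs1HZ, and 27.25, 31.47, 22.86 and 17.36 in Wfs1KO. Here the lowest Wfs1KO animal was replicate 4, and WT replicate 1 was again the highest of its group. The log2 difference of Syvn1 was 0.43 ± 0.24 from WT and 0.58 ± 0.24 from Wfs1HZ, the latter 0.44 ± 0.27 without Wfs1HZ replicates 2 and 4. Herpud2 was 14.3 ± 2.09 RPKM in WT, 13.0 ± 7.2 in Wfs1HZ, with 22.76 in replicate 2 and 5.41 in replicate 4, and 18.1 ± 3.39 in Wfs1KO.

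Derlins are membrane proteins related to the rhomboid proteases that help to move substrates through the ER membrane. Their log2 differences in Wfs1KO had a median of 0.63 against WT and 0.84 against Wfs1HZ (0.55 without Wfs1HZ replicates 2 and 4), and Derl3 had the largest difference of all members against WT. Derl3 (chromosome 10, 75893413 to 75895941) had 4.42, 7.25, 8.69 and 10.37 RPKM in WT, 13.78, 4.41, 18.74 and 12.47 in Wfs1HZ and 26.81, 28.96, 25.8 and 17.88 in Wfs1KO. The lowest Wfs1KO animal was well above the highest WT animal, whereas the Wfs1HZ animals were spread from just below the lowest WT animal (replicate 2) to above the lowest Wfs1KO animal (replicate 3). The log2 difference between Wfs1KO and WT was 1.72 ± 0.28 (SE, unadjusted p = 0.000156, adjusted p = 0.27 by limma, exact permutation p = 0.029). With each animal left out in turn it was between 1.48 and 1.89. Over 20 alternatives to the fit the adjusted p lay between 0.0787 and 0.925, and it was under 0.2 in 6 of them. From Wfs1HZ the difference was 1.15 ± 0.41 (SE, adjusted p = 1, exact permutation p = 0.057), and 0.60 without Wfs1HZ replicates 2 and 4. Between Wfs1HZ and WT it was 0.57 ± 0.45 (SE, exact permutation p = 0.343), and 1.12 without those animals.

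Because acinar cells are secretory cells with a large ER, the acinar level is given beside Derl3. Wfs1KO replicate 4 had the lowest acinar sum of all animals, 9766 RPKM, and its Derl3 value of 17.88 was the lowest of its group and still above every WT animal. In Wfs1HZ the lowest acinar sum and the lowest Derl3 value, 4.41, belonged to the same animal, replicate 2. The highest acinar sums, in Wfs1HZ replicate 4 and Wfs1KO replicate 3, stood beside 12.47 and 25.8 RPKM of Derl3. Within WT the Derl3 values were 8.69 and 10.37 in replicates 3 and 4, where the acinar sums were 128964.38 and 119762.87. They were 4.42 and 7.25 in WT replicates 1 and 2, where the sums were lower, 70038.39 and 57682.23. Much of the acinar sum was Ctrb1, with 258069.66 of 325377.5 RPKM in Wfs1HZ replicate 4. With the log2 acinar sum as a covariate, an alternative added after the data had been seen, the difference of Derl3 between Wfs1KO and WT was 1.79 (adjusted p = 0.151 by limma). The ratio of Derl3 to Ube2j1 within an animal, which a single factor for each library cannot change, was 0.079 to 0.188 in WT, 0.0951 to 0.35 in Wfs1HZ and 0.432 to 0.569 in Wfs1KO. Ube2j1 was picked for this ratio after its values were seen.

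**Figure D3:**
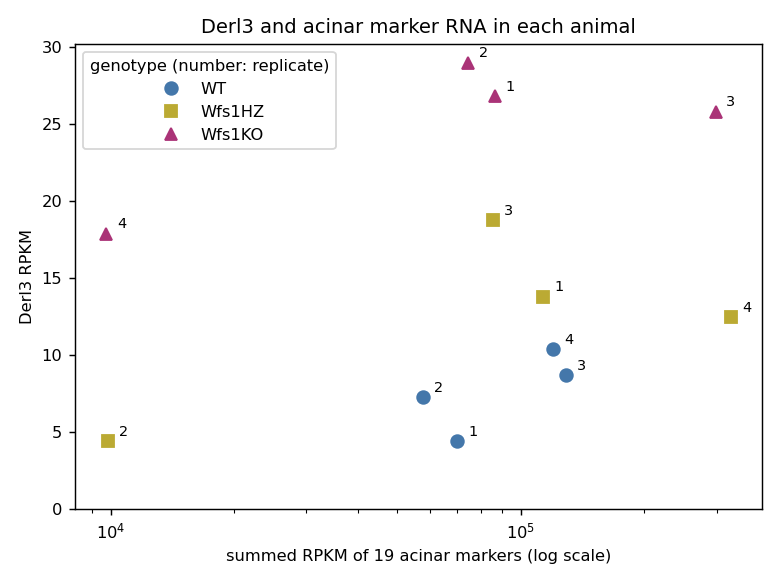
Derl3 in RPKM against the summed RPKM of 19 acinar markers (log axis) in each of the 12 animals, with the replicate number beside each point. All 4 Wfs1KO animals lie between 17.88 and 28.96 RPKM of Derl3, above the highest WT animal at 10.37, at acinar sums from 9766 to 298000.

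Derl1 (chromosome 15, 57869502 to 57892448) had 36.46, 22.48, 16.47 and 24.18 RPKM in WT, 23.71, 16.25, 27.13 and 17.48 in Wfs1HZ and 52.09, 48.67, 33.06 and 22.63 in Wfs1KO. Replicates 1 and 2 of Wfs1KO exceeded all other animals, replicate 3 lay within the WT range and replicate 4 within both other groups. The differences were 0.63 from WT (standard error 0.32, adjusted p = 0.879 by limma, exact permutation p = 0.171) and 0.84 from Wfs1HZ (standard error 0.31, adjusted p = 1, exact permutation p = 0.086), the latter 0.55 without Wfs1HZ replicates 2 and 4. Derl2 was 22.6 ± 4.79 RPKM in WT, 18.9 ± 5.72 in Wfs1HZ and 26.3 ± 5.15 in Wfs1KO, with overlap of all groups. The ratio of Derl3 to Derl1 within an animal was 0.121 to 0.528 in WT, 0.581, 0.271, 0.691 and 0.713 in Wfs1HZ and 0.515 to 0.79 in Wfs1KO.

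**Figure D4:**
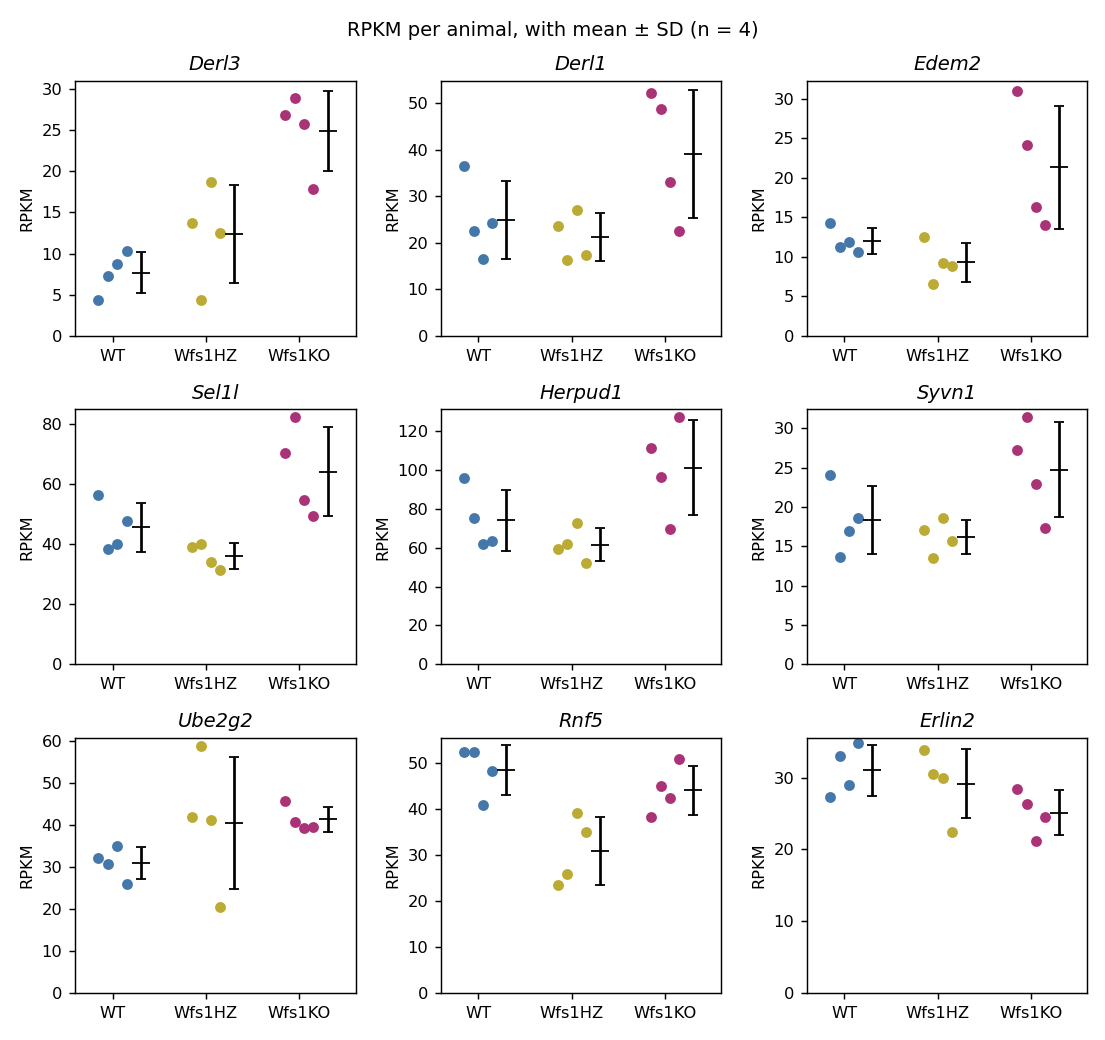
RPKM of 9 members in each animal (points), with the mean ± SD of the 4 animals of each genotype beside them and every axis starting at 0. Derl3 and Ube2g2 show no overlap between Wfs1KO and WT, Edem2 and Sel1l none between Wfs1KO and Wfs1HZ, and Rnf5 none between Wfs1HZ and WT.

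The other membrane ligases, Rnf5, Rnf139 and Rnf185, had a median of -0.09 against WT and 0.24 against Wfs1HZ, or 0.11 without Wfs1HZ replicates 2 and 4. Rnf5 (chromosome 17, 34601091 to 34603690) had 52.49, 52.37, 40.96 and 48.21 RPKM in WT, 23.55, 25.96, 39.11 and 34.95 in Wfs1HZ and 38.2, 45.01, 42.31 and 50.83 in Wfs1KO. The Wfs1HZ animals were all below the WT animals, by a small gap at replicate 3, and Wfs1KO overlapped with both. The difference between Wfs1HZ and WT was -0.67 ± 0.21 (SE, adjusted p = 1 by limma, exact permutation p = 0.029), also -0.67 without Wfs1HZ replicates 2 and 4, and after median-of-ratios scaling -0.63 with an unadjusted p of 0.0829. Wfs1KO differed from WT by -0.14 ± 0.16 (SE, adjusted p = 0.94, exact permutation p = 0.314) and from Wfs1HZ by 0.53 ± 0.23 (SE, adjusted p = 1, exact permutation p = 0.057), the latter also 0.53 without those animals. An antisense gene, Gm20463, overlaps 24.7% of the exon bases of Rnf5, and reads of the pair cannot be told apart where strand was not used in counting. Rnf185 was 26.5 ± 6.89 RPKM in WT, 25.6 ± 8.77 in Wfs1HZ and 29.1 ± 5.08 in Wfs1KO. Rnf139, which shares 22.3% of its exon bases with Tatdn1, was 9.66 ± 4.16, 9.14 ± 5.28 and 8.57 ± 2.35 RPKM.

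The ubiquitin-conjugating enzymes had medians of 0.07 against WT and 0.07 against Wfs1HZ, close to those of all entries, the latter -0.10 without Wfs1HZ replicates 2 and 4. Ube2g2 (chromosome 10, 77622275 to 77645993), a cytosolic enzyme recruited to the membrane, was the exception. It had 32.29, 30.82, 35.08 and 26.01 RPKM in WT, 41.89, 58.91, 41.23 and 20.47 in Wfs1HZ and 45.84, 40.84, 39.43 and 39.58 in Wfs1KO. The Wfs1KO animals lay close together and above every WT animal, and Wfs1HZ held both the highest and the lowest value of all 12. The difference of Wfs1KO from WT was 0.42 ± 0.15 (SE, adjusted p = 0.835 by limma, exact permutation p = 0.029) and that from Wfs1HZ 0.12 ± 0.30 (SE, adjusted p = 1, exact permutation p = 0.857). The latter turned to -0.17 without Wfs1HZ replicate 4 and to -0.01 without replicates 2 and 4. Ube2j1, the membrane-anchored partner of HRD1, had 55.98, 47.79, 52.51 and 55.07 RPKM in WT, 56.85, 46.35, 53.5 and 36.77 in Wfs1HZ and 54.14, 52.98, 45.32 and 41.35 in Wfs1KO, with all groups overlapping. Its difference from WT was -0.13 ± 0.15 (SE, adjusted p = 0.941, exact permutation p = 0.229) and that from Wfs1HZ 0.01 ± 0.22 (SE, adjusted p = 1, exact permutation p = 0.971), or -0.20 without Wfs1HZ replicates 2 and 4. Ube2j2 was the least abundant member, with 2.46, 2.73, 1.75 and 1.91 RPKM in WT, 3.26, 4.78, 3.39 and 0.96 in Wfs1HZ and 2.19, 2.21, 2.15 and 2.84 in Wfs1KO, and as few as about 21 reads in an animal. Wfs1HZ held its highest and its lowest value. Wfs1KO differed from WT by 0.09 ± 0.27 (SE, adjusted p = 0.987, exact permutation p = 0.571) and from Wfs1HZ by -0.20 ± 0.50 (SE, adjusted p = 1, exact permutation p = 0.714), or -0.49 without Wfs1HZ replicates 2 and 4, and the sign of both changed under some alternatives. Ube2g1 was 10.2 ± 0.659 RPKM in WT and 10.7 ± 2.39 in Wfs1KO.

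The machinery that draws substrates from the membrane differed little from WT in its median. The ATPase Vcp was 13.3 ± 1.72 RPKM in WT, 12.9 ± 4.95 in Wfs1HZ and 13.9 ± 2.1 in Wfs1KO. Its cofactors Ufd1l and Nploc4, which bind ubiquitinated substrates, differed from WT by 0.04 ± 0.16 and 0.02 ± 0.15 on the log2 scale (SE). Faf2, which anchors Vcp at the ER, had the largest difference of this group, 0.32 ± 0.19, with 11.4 ± 1.23 RPKM in WT and 14.4 ± 2.9 in Wfs1KO. Ubxn4 had 97.4 ± 29.2 RPKM in Wfs1KO, with 113.09 and 130.54 in replicates 1 and 2 and 70.21 and 75.65 in replicates 3 and 4, on either side of all 4 WT animals. Ubxn6 had 27.85, 24.19, 15.48 and 8.9 RPKM in Wfs1KO, but shares 81.8% of its exon bases with Chaf1a and its level is uncertain. All 6 genes had a higher mean in Wfs1KO than in WT, with a median of 0.08 beside 0.07 over all entries. Against Wfs1HZ all 6 were higher too, with a median of 0.30 beside 0.04, and 0.07 without Wfs1HZ replicates 2 and 4.

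Erlin2 had the most negative difference of any member between Wfs1KO and WT. The erlins form a complex in the ER membrane that recognises activated IP3 receptors, the calcium release channels of the ER, for degradation. Erlin2 (chromosome 8, 27023261 to 27040328) had 27.25, 33.05, 28.94 and 34.84 RPKM in WT, 33.83, 30.51, 29.99 and 22.37 in Wfs1HZ and 28.47, 26.29, 21.15 and 24.55 in Wfs1KO. A single Wfs1KO animal, replicate 1, lay within the WT range. The difference from WT was -0.30 ± 0.16 (SE, adjusted p = 0.879 by limma, exact permutation p = 0.057). That from Wfs1HZ was -0.21 ± 0.21 (SE, adjusted p = 1, exact permutation p = 0.229), or -0.35 without Wfs1HZ replicates 2 and 4. Its partner Erlin1 was 17.7 ± 2.26 RPKM in WT, 15.8 ± 6.63 in Wfs1HZ and 18.9 ± 3.83 in Wfs1KO, a difference from WT of 0.08 ± 0.20 (SE). Aup1, a lipid droplet protein that recruits Ube2g2, was 13.6 ± 2.89, 10.9 ± 3.27 and 15.8 ± 4.09 RPKM, with 23.0% of its exon bases shared with Htra2. Ngly1, the cytosolic enzyme that removes glycans from the extracted proteins, was 11.3 ± 5.12 RPKM in WT, with 15.67 and 15.79 in replicates 1 and 2 and 7.53 and 6.27 in replicates 3 and 4, and 12.1 ± 1.9 in Wfs1KO.

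The medians of the roles ran against WT from 0.63 for the derlins and 0.43 for the HRD1 complex to 0.08 for extraction and -0.09 for the other ligases, a difference between roles that was not tested. The size of the difference also varied among the Wfs1KO animals. Over the 30 members the median log2 level relative to the WT mean was 0.26 and 0.30 in replicates 1 and 2, -0.04 in replicate 3 and 0.13 in replicate 4. The median over members of Wfs1KO against WT was 0.09 without Wfs1KO replicate 2 and 0.26 without WT replicate 1, and the count of members higher at an unadjusted p under 0.05 was 7, not 4, without WT replicate 1 or without Wfs1KO replicate 3, beside 3.69% and 5.24% of all entries, and 3.91% with every animal. In the Wfs1HZ group the corresponding medians were -0.01, -0.13, -0.03 and -0.57 for replicates 1 to 4. Replicate 4 was the lowest of all 12 animals in 19 members as deposited and in 5 after median-of-ratios scaling, and replicate 2 in 7 and 18.

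Scaling changed the counts little in the comparison with WT. After median-of-ratios scaling 25 members were higher in Wfs1KO with a median of 0.13, beside 0.05 over all entries, and 4 had an unadjusted p under 0.05. Among these 4 Herpud1 (unadjusted p = 0.0291 by limma) took the place of Sel1l (unadjusted p = 0.0811). With quantile normalization the split was 23 higher and 7 lower with a median of 0.10, beside -0.02 over all entries. Over all entries the same scalings moved the split at an unadjusted p under 0.05 from 848 higher and 377 lower to 889 and 683, and to 696 and 790. Against Wfs1HZ 26 members were higher with the first scaling and 25 with the second. Their medians were 0.27 and 0.23, beside -0.02 and 0.0 over all entries. With the first scaling 5 members had an unadjusted p under 0.05 there, Edem2, Sel1l, Herpud1, Herpud2 and Derl2. All 5 were higher in Wfs1KO, as were 1.82% of all entries. Derl3, Derl1, Syvn1 and Rnf5 no longer reached it (0.0749, 0.0618, 0.144 and 0.198 as unadjusted p by limma).

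Other factors that work beside the members, such as further ligases, ubiquitin shuttles and ER chaperones, were taken from a list of 50 genes, of which 48 had an entry. Their median log2 difference was 0.15 between Wfs1KO and WT, with 36 higher and 12 lower, and 0.28 between Wfs1KO and Wfs1HZ, with 44 higher and 4 lower, or 0.13 with 34 and 14 without Wfs1HZ replicates 2 and 4. Between Wfs1HZ and WT 12 were higher and 36 lower, with a median of -0.18, and 24 were higher and 24 lower without those replicates. By limma 0 of them had an FDR under 0.05 in any comparison. An unadjusted p under 0.05 was reached by 3 factors against WT (Dnajb11, Sdf2l1 and Tor1a) and by 5 against Wfs1HZ, all higher in Wfs1KO, and by 0 between Wfs1HZ and WT. These are 6.25% and 10.4% of the list beside 3.91% and 1.7% of all entries, and without Wfs1HZ replicates 2 and 4 the 5 became 0. Sdf2l1, a partner of the ER chaperone BiP, did not overlap between Wfs1KO and either other genotype, 2.08% of the list against WT and, with Dnajb9, 4.17% against Wfs1HZ, beside 1.75% and 0.926% of all entries. It had 42.1, 20.54, 42.13 and 40.63 RPKM in WT, 46.51, 7.76, 46.55 and 42.31 in Wfs1HZ and 99.46, 86.0, 54.38 and 46.83 in Wfs1KO. The lowest Wfs1KO animal was only just above the highest Wfs1HZ animal. The difference was 0.97 from WT (standard error 0.32, adjusted p = 0.835 by limma) and 1.23 from Wfs1HZ (standard error 0.55, adjusted p = 1). In Wfs1HZ replicate 2 it was far below the other animals, and the difference from Wfs1HZ was 0.60 without that animal, 0.55 without replicates 2 and 4, and had an unadjusted p of 0.128 after median-of-ratios scaling. Dnajb9, a cochaperone of BiP that delivers substrates for degradation, was 92.8 ± 20.0 RPKM in WT, 74.1 ± 14.1 in Wfs1HZ and 123 ± 34.7 in Wfs1KO, with no overlap between Wfs1KO and Wfs1HZ (log2 difference 0.70 ± 0.27 SE, adjusted p = 1), or 0.47 without Wfs1HZ replicates 2 and 4. In the promoter windows of this list ERSE was found in Hspa5, Hsp90b1, Canx, Calr and Dnajc3, and ERSE-II in Dnajb11. The core of the UPR element was found in Hspa5, Atxn3 and Txndc11. Of all windows 0.119%, 0.0365% and 2.01% held these motifs in the same order. How many genes of this list had a window is not given here.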

How the data were processed

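RNA of hand-picked islets was converted to cDNA from 10 ng of total RNA (Ovation RNA-Seq System V2) and read on a SOLiD 5500xl as 75 bp forward and 35 bp reverse reads. Mapping to mm10 was done with LifeScope, and the authors tested genotypes on counts with edgeR. The authors deposited RPKM values rounded to 2 decimals, 1 column for each animal, with no log transformation. The annotation and the counting tool are not given in the sources used here, nor is the use of strand.

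From these values log2(RPKM + 0.1) was computed without further scaling, so fold changes of low genes are understated. Each pair of genotypes was fitted with limma (version 3.58.1, R 4.3.3) with a variance trend and Benjamini-Hochberg adjustment over the 21701 entries with a mean of at least 0.1 RPKM. All 30 members passed this filter. Since RPKM are not counts, the count test was not repeated. For single genes, mean log2 values were compared by exact permutation (two-sided), which cannot give a p below 0.029. Procedures were tested on simulated data. Depth was estimated from genes under 200 nt, where 1 read is worth a fixed RPKM (94.5% to 100.0% of values were whole within 0.05 reads). With it 3 reads on 2 kb are worth 0.157 to 0.685 RPKM, for counting error only. Reads of a member are its RPKM times exon length and depth. Coordinates are from GENCODE M21 (GRCm38, the build of mm10), promoters from RefSeq. Other steps used Python 3.11.15 with pandas 2.3.3, numpy 2.4.6 and matplotlib 3.10.9.

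Members and lists were chosen with earlier results of these data known. Every animal was given for members without overlap in any comparison and for the 3 largest and 3 smallest differences in each comparison with Wfs1KO. For these members full statistics were given in the comparisons with Wfs1KO. Herpud1 and Syvn1 were added with every animal for their promoter motifs. Of the other factors those without overlap in a comparison with Wfs1KO were named. Dnajb11 and Tor1a were named after their values were seen. The alternatives were a pseudocount of 1 or 0.01, a minimum mean of 1 RPKM or none, median-of-ratios and quantile scaling, no variance trend, a robust variance, 1 fit of all 12 samples, sample weights, a replicate block and the removal of each animal. The acinar covariate and the removal of Wfs1HZ replicates 2 and 4 were added after the data were seen.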

Additional observations from a re-analysis of the deposited data

Results flagged for a closer look

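In 9 of the 90 groups of 4 animals (10.0%), 1 animal lay so far from the other 3 that the gap to the nearest, divided by the range of the group, exceeded Dixon's critical value. Chance alone does this in about 1 in 20 groups, and no test of the share was made. The value of this ratio on the log2 scale is given for each, beside the RPKM values. In Wfs1KO replicate 3 Man1b1 was low (0.835), with 7.71 RPKM against 10.28 to 10.88 in the others, as was Ube2g1 (0.871), with 7.12 against 11.35 to 12.16, and Ufd1l (0.835), with 25.77 against 34.5 to 36.54. Wfs1KO replicate 4 was high in Rnf185 (0.885), with 36.72 RPKM against 25.92 to 26.98, and in Ube2j2 (0.902), with 2.84 against 2.15 to 2.21. Os9 was low in Wfs1HZ replicate 2 (0.927), with 13.42 RPKM against 24.5 to 25.68. In Wfs1HZ replicate 4 Ufd1l (0.975) had 15.11 RPKM against 31.15 to 31.74 and Ngly1 (0.837) had 4.17 against 9.57 to 11.24. Nploc4 was high in WT replicate 1 (0.832), with 22.04 RPKM against 16.35 to 17.19.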

How the results depend on the processing

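No member had an FDR under 0.05 in any comparison under any alternative tried. The median log2 difference of the members kept its sign throughout. With each animal left out it was 0.09 to 0.26 between Wfs1KO and WT, 0.20 to 0.46 between Wfs1KO and Wfs1HZ, and -0.25 to -0.02 between Wfs1HZ and WT. Without Wfs1HZ replicates 2 and 4 it was 0.13 between Wfs1KO and Wfs1HZ. The count of members higher in Wfs1KO than in WT at an unadjusted p under 0.05, 4 as reported, was 2 without a variance trend, 2 with all 12 samples in 1 fit and 8 with sample weights, beside 3.97%, 1.99% and 6.47% of all entries (3.91% as reported), and 3 to 7 with each animal left out, beside 2.67% to 5.24%. The count of lower members, 0 as reported, was 1 without a filter and 1 after quantile normalization, beside 1.88% and 3.64%. Against Wfs1HZ the count of higher members, 7 as reported, was 3 without a variance trend, 4 after quantile normalization and 4 without Wfs1HZ replicates 2 and 4, beside 1.39%, 2.09% and 2.6% of all entries (1.7% as reported), and 4 to 7 with each animal left out, beside 0.912% to 5.18%, and that of lower members was 1 after quantile normalization, beside 1.99%. Between Wfs1HZ and WT 1 member was higher after median-of-ratios scaling, 1 with sample weights and 2 without Wfs1HZ replicates 2 and 4, beside 2.25%, 3.23% and 2.22%, with 0 to 1 over single animals left out. The count of lower members there was 0 after median-of-ratios scaling (beside 1.88%) and 1 to 2 over single animals. The causes were not tested, beyond the fewer animals where some were left out.

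Of the recomputed differences of the 9 members with full statistics, 540 kept their direction and their side of the threshold and 18 changed sign, none of these past the threshold before or after. Between Wfs1KO and WT Ube2j2 was -0.01 with sample weights and -0.01 without WT replicate 3. Between Wfs1KO and Wfs1HZ Ube2g2 was -0.08 after quantile normalization, -0.01 without Wfs1HZ replicates 2 and 4, and -0.17 to 0.33 over single animals left out. Ube2j1 was -0.06 after median-of-ratios scaling, -0.17 after quantile normalization, -0.04 with sample weights and -0.20 without Wfs1HZ replicates 2 and 4, with -0.11 to 0.10 over single animals left out. Ube2j2 was -0.66 to 0.07 over single animals, the latter without Wfs1HZ replicate 2. Between Wfs1HZ and WT, without Wfs1HZ replicates 2 and 4, Derl1 was 0.08, Erlin2 0.05 and Ube2j1 0.06, and Erlin2 was 0.02 without replicate 4.

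Animals that share a replicate number are different animals, and their deviations from the group means correlated by -0.17 to 0.23, with no comparison in which every pair was above 0.1, so the numbers were not taken as a pairing. With the replicate number as a block 4 members, not 7, were higher in Wfs1KO than in Wfs1HZ at an unadjusted p under 0.05, beside 1.31% of all entries, and no other count of members moved by over 1.5 times. At the lowest estimated depth, 2191000 reads, 0.685 RPKM is the value of 3 reads on 2 kb, below the level of every member.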
